A study of Mus musculus with 6 samples.

Results

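The genes described here are those whose RNA was lower in cultured mouse eosinophils given interleukin 33 (IL-33) than in untreated cells. A gene was taken as lowered where log2((IL-33 FPKM + 1) / (control FPKM + 1)) was -1 or less at 1 h or at 4 h, with a control FPKM of at least 2 at that time. The members were thus chosen by the FPKM of the IL-33 and untreated libraries of the same time. FPKM counts fragments per kilobase of transcript and scaled to the number of mapped reads, so levels can be set beside each other between genes. Names of small RNAs and of ribosomal protein genes were left out of the rule, as were 3 further genes. The rule gave 133 of 22548 gene symbols, of which 28 were lowered at 1 h, 112 at 4 h and 7 at both times. The 28 were 0.307% of the 9132 genes that reached the control level at 1 h, and the 112 were 1.19% of the 9374 that reached it at 4 h. Genes higher by the same rule of size were more numerous, with 172 at 1 h (1.88%) and 296 at 4 h (3.16%).

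Each of 6 groups held 1 library of eosinophils grown from low-density bone marrow cells of wild-type BALB/c mice aged 4 to 8 weeks. The groups were cells given IL-33 for 1 h, IL-33 for 4 h, IL-4 for 1 h or IL-4 for 4 h, each at 10 ng/ml, and untreated cells at 1 h and at 4 h. Culture lasted 14 days in every group. SCF (stem cell factor) and FLT3-ligand, 100 ng/ml of each, were present during an opening phase of 4 days, and IL-5 followed at a concentration of 10 ng/ml. The labels give neither a purification step after culture nor the number of mice behind a library. Since a group is a single library, replicate error is unknown, no condition was tested, and all values below describe these 6 libraries.

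IL-33 is an alarmin released by damaged barrier tissue. It binds the receptor ST2 on eosinophils, mast cells and type 2 lymphoid cells, and through the adaptor MyD88 it activates NF-kB and MAP kinases. The best known part of this response is a burst of cytokine and chemokine transcripts. How far an RNA level can fall within hours is bounded by how quickly it is degraded.

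The libraries carried the RNA of eosinophil granule proteins at very high level, with 41838 FPKM of Prg2 (major basic protein) with IL-33 at 4 h and 44745 FPKM in untreated cells at 4 h. Markers of other cells were also present. The summed FPKM of 13 neutrophil markers was 7390 with IL-33 and 6880 in untreated cells at 1 h, and 6208 with IL-33 and 7940 in untreated cells at 4 h. For 14 markers of the monocyte and dendritic cell lineage it was 4139 with IL-33 and 4018 in untreated cells at 1 h, and 3533 with IL-33 and 2780 in untreated cells at 4 h. For 10 mast cell and basophil markers it was 440.5 with IL-33 and 372.3 in untreated cells at 1 h, and 396.2 with IL-33 and 365.3 in untreated cells at 4 h. The highest of these were Hdc (96.9 to 234.1 FPKM over the 6 libraries), Cpa3 (75.2 to 95.6 FPKM) and Mcpt8 (55.4 to 87.0 FPKM), while the mast cell proteases Mcpt4 and Tpsb2 stayed at or below 0.158 FPKM. For 13 lymphoid markers it was 28.1 with IL-33 and 24.96 in untreated cells at 1 h, and 23.8 with IL-33 and 29.6 in untreated cells at 4 h. Of these, Il7r ran from 6.36 to 10.7 FPKM and Cd3d from 5.32 to 9.75 FPKM, while Cd3e stayed at or below 0.148 FPKM. In bulk RNA, fewer cells of a type and less RNA per cell cannot be told apart. The files hold no read counts. From the smallest steps of low values, the depth was estimated at 15.02 (untreated, 4 h) to 28.35 (IL-33, 4 h) in units of 1e6 reads, a rough estimate, as 58.8% to 61.8% of low values lay within 0.15 of a whole read.

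The early fall was led by B3gnt7, by the paired genes Frat1 and Frat2, by Tnfaip8l2, Klhl21, Lpar6, Gpr146 and Ahr. The 28 genes lowered at 1 h had a median level of 4.90 FPKM with IL-33, 13.8 FPKM with IL-4 and 16.3 FPKM in untreated cells at 1 h. Their control levels ran from 3.31 FPKM for AA465934 to 245.8 FPKM for Rgs2. At 4 h the same 28 genes had median levels of 12.4 FPKM with IL-33, 17.6 FPKM with IL-4 and 17.5 FPKM in untreated cells. By role, 6 of the early genes encode transcription and chromatin factors, 4 belong to the Wnt, GSK3 and Notch pathways and 3 are G protein-coupled receptors or their regulators. Roles were given to members only, so these counts order the description and have no share over all genes beside them.

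**Figure D1:**
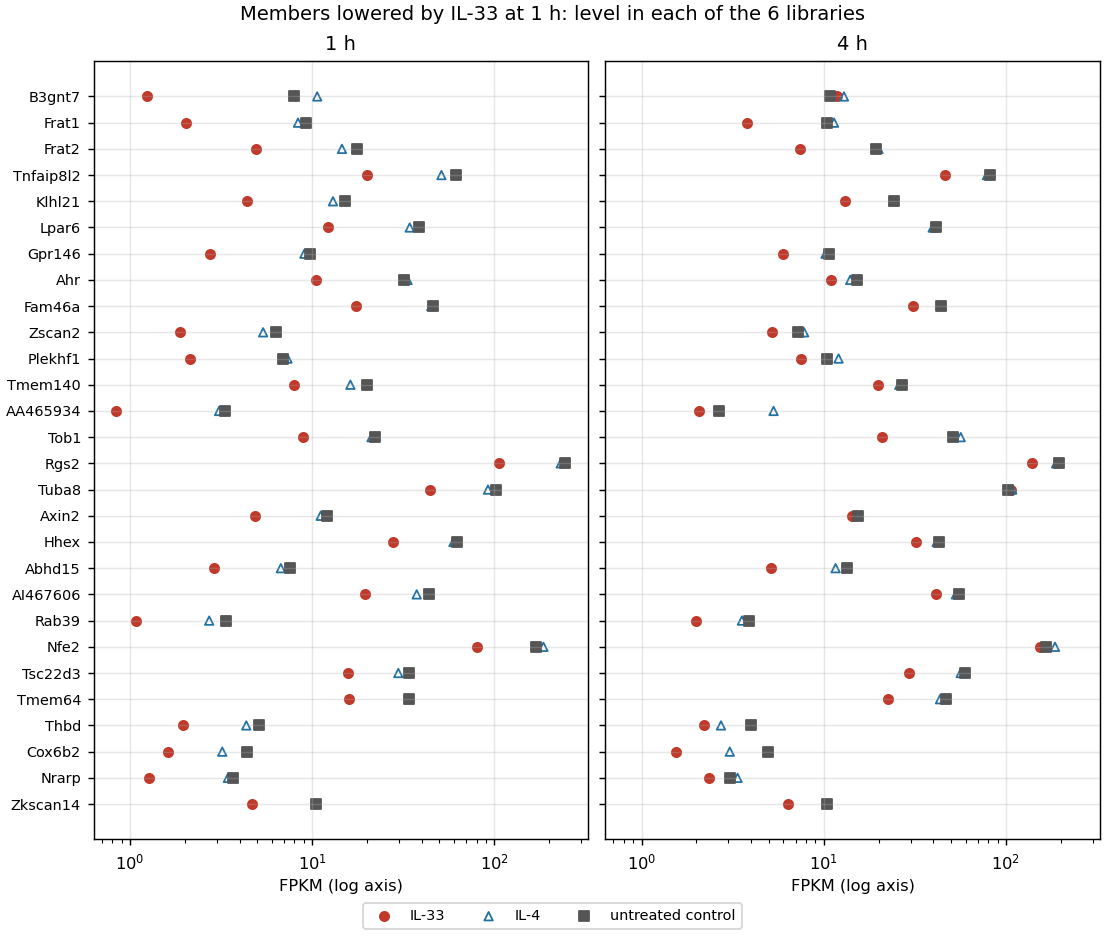
FPKM (log axis) of the 28 genes lowered by IL-33 at 1 h, ordered by the size of the fall, in the 1 h libraries (left) and the 4 h libraries (right), with 1 point per library. At 1 h the IL-33 point lies left of both others for every gene, as the rule requires for the control, and the IL-4 point lies near the untreated one. At 4 h B3gnt7 and Tuba8 have their IL-33 point right of the untreated one.

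Frat1 and Frat2 encode GSK3-binding proteins that keep this kinase from phosphorylating beta-catenin. Frat1 had 2.02 FPKM with IL-33, 8.37 FPKM with IL-4 and 9.20 FPKM in untreated cells at 1 h. At 4 h it had 3.81 FPKM with IL-33, 11.4 FPKM with IL-4 and 10.5 FPKM in untreated cells. Frat1 was thus lowest in the 2 IL-33 libraries, with log2 changes of -1.75 at 1 h and -1.25 at 4 h. Frat2 had 4.91 FPKM with IL-33, 14.6 FPKM with IL-4 and 17.6 FPKM in untreated cells at 1 h. Its 4 h levels were 7.41 FPKM with IL-33, 19.96 FPKM with IL-4 and 19.4 FPKM in untreated cells. Frat2 followed the order of Frat1, with changes of -1.65 and -1.28. The 2 genes lie 13.4 kb apart on chromosome 19 (mm9, Frat1 at chr19:41904460-41907073 and Frat2 at chr19:41920465-41922622). Of the 36-base words in their transcripts, 5.08% of those of Frat1 and 6.16% of those of Frat2 occurred in the other, so most reads could be assigned to 1 of them.

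Axin2, a scaffold of the complex that degrades beta-catenin and a classical Wnt target, was lowered at 1 h only. It had 4.88 FPKM with IL-33, 11.1 FPKM with IL-4 and 12.1 FPKM in untreated cells at 1 h, a change of -1.15. At 4 h it had 14.4 FPKM with IL-33, 15.3 FPKM with IL-4 and 15.5 FPKM in untreated cells, and its change was -0.10. Nrarp, an inhibitor of Notch signalling, had 1.27 FPKM with IL-33 and 3.67 FPKM in untreated cells at 1 h. At 4 h it had 2.35 FPKM with IL-33 and 3.05 FPKM in untreated cells. Among genes lowered at 4 h, 2 more belong to the Wnt pathway, both at low level. The receptor gene Fzd2 had 0.197 FPKM with IL-33 and 2.34 FPKM in untreated cells, and Rnf43, which encodes a ubiquitin ligase that removes Frizzled receptors, had 0.635 FPKM with IL-33 and 3.26 FPKM in untreated cells. A list of 24 genes of the canonical Wnt and GSK3 pathway gave 3 lowered of 21 compared at 1 h (Axin2, Frat1 and Frat2) and 2 of 20 at 4 h (Frat1 and Frat2), and none higher. Over all genes, 0.307% were lowered and 1.88% higher at 1 h, and 1.19% lowered and 3.16% higher at 4 h. The list's median change was -0.08 at 1 h and 0.10 at 4 h, against -0.02 and -0.03 over all genes. The same shares and medians of all genes stand beside each of the other lists. This list and the others were chosen with earlier results of these data known, so no excess is read from their counts. Of the Wnt list's other genes, the kinase gene Gsk3b changed by -0.04 and -0.13, and Ctnnb1, which encodes beta-catenin, by 0.62 and 0.67.

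The windows from 250 bases before to 50 bases after the annotated start were searched for short motifs in members and in all genes that reached the control level, with sequences from RefSeq (GRCm38.p6). Windows were found for 23 of the 28 genes lowered at 1 h and 83 of the 112 lowered at 4 h. The forkhead (FOXO) motif TGTTTAC, on either strand, stood in 5 of 29 windows of genes lowered at 1 h (17.2%). It stood in 4 of 111 windows of genes lowered at 4 h (3.60%) and in 2.77% of all 9619 windows. The 5 windows are shown because they are the ones that hold it among the early genes, with the motif or its reverse complement in capitals, each read on its gene's strand.
Frat1: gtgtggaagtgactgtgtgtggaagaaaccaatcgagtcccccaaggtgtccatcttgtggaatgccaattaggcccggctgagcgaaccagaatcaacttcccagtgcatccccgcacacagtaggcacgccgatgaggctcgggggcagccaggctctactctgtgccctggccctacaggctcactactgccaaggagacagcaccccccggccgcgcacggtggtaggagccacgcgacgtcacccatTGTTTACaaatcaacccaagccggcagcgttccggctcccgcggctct
Frat2: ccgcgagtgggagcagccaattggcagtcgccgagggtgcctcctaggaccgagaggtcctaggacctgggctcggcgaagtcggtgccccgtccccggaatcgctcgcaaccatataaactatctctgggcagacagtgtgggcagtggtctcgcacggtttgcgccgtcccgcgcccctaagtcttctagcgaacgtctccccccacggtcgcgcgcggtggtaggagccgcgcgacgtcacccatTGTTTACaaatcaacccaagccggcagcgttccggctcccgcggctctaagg
Gpr146: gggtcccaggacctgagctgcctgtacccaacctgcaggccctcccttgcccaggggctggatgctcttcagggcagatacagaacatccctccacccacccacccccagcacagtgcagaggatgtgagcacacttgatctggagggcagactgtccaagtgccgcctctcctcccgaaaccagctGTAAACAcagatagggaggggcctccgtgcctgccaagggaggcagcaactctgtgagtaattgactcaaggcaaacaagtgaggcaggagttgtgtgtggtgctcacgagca
Tmem140: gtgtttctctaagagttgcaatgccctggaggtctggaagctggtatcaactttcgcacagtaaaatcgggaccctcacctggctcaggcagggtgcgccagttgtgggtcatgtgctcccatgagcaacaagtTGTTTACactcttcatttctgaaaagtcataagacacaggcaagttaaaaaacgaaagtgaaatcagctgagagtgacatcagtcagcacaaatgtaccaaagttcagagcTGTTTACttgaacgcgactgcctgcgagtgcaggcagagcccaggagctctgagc
Zscan2: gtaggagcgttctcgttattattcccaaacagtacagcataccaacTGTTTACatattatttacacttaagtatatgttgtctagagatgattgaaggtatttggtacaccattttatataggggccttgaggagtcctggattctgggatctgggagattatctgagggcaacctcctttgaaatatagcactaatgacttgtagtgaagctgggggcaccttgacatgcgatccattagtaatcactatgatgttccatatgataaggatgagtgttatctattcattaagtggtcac

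The windows lie at chr19:41829720-41830019 (Frat1, plus strand), chr19:41848083-41848382 (Frat2, minus strand), chr5:139389654-139389953 (Gpr146, plus), chr6:34862896-34863195 (Tmem140, plus) and chr7:80861858-80862157 (Zscan2, plus), all in GRCm38.p6. The Frat1 and Frat2 windows share an identical run of 63 bases around the start that holds the motif, so these 2 are not separate occurrences. Gpr146 had 3 annotated windows and Zscan2 had 2, with the motif in 1 of each. The other motifs gave the following shares. An NF-kB motif stood in 6 of 29 windows of genes lowered at 1 h (20.7%), 9.91% of those lowered at 4 h and 10.4% of all windows. The ETS motif CCGGAAG stood in 10.3% of early, 9.01% of late and 19.9% of all windows. The palindromic STAT motif TTCNNNGAA stood in 6.90% of early, 8.11% of late and 6.95% of all windows. For the E-box CACGTG it was 17.2% of early, 9.91% of late and 10.5% of all windows, and for the CRE motif TGACGTCA 0 of 29 early, 3.60% of late and 3.19% of all windows. The TCF/LEF motif CTTTGA stood in 10.3% of early, 14.4% of late and 11.95% of all windows, and the AHR core GCGTG in 31.0% of early, 42.3% of late and 50.9% of all windows. Median GC content was 61.3% in early, 59.3% in late and 60.7% in all windows. A match is a string of letters in these windows and not a measured site of binding.

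Of the G protein-coupled receptors and their regulators, Lpar6, Gpr146 and Rgs2 passed the rule at 1 h, and P2ry10, S1pr4 and Lpar5 at 4 h. Lpar6, a receptor for lysophosphatidic acid, had 12.3 FPKM with IL-33, 34.3 FPKM with IL-4 and 38.4 FPKM in untreated cells at 1 h. In the 4 h libraries it had 40.6 FPKM with IL-33, 39.6 FPKM with IL-4 and 41.5 FPKM in untreated cells. The 1 h library with IL-33 was the only low one for Lpar6. The orphan receptor gene Gpr146 had 2.75 FPKM with IL-33, 9.07 FPKM with IL-4 and 9.79 FPKM in untreated cells at 1 h, and 5.94 FPKM with IL-33, 10.2 FPKM with IL-4 and 10.8 FPKM in untreated cells at 4 h. Rgs2, which speeds up GTP hydrolysis by Gq, had the highest control level of the early group. It had 105.9 FPKM with IL-33, 231.5 FPKM with IL-4 and 245.8 FPKM in untreated cells at 1 h, and 139.3 FPKM with IL-33, 188.5 FPKM with IL-4 and 195.6 FPKM in untreated cells at 4 h.

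P2ry10, a receptor for lysophosphatidylserine, had 11.9 FPKM with IL-33, 30.2 FPKM with IL-4 and 30.9 FPKM in untreated cells at 4 h. S1pr4, a receptor for sphingosine 1-phosphate, had 28.6 FPKM with IL-33, 58.1 FPKM with IL-4 and 59.1 FPKM in untreated cells at 4 h. Lpar5, another lysophosphatidic acid receptor, was at low level, with 0.720 FPKM with IL-33, 3.78 FPKM with IL-4 and 3.68 FPKM in untreated cells at 4 h. At 1 h the log2 changes of these 3 with IL-33 had been -0.12, -0.65 and -0.63. Ramp1, a subunit of the receptor for calcitonin gene-related peptide, had 3.96 FPKM with IL-33 and 9.59 FPKM in untreated cells at 4 h. A list of 39 lipid, nucleotide and orphan receptors gave 2 lowered of 18 compared at 1 h (Gpr146 and Lpar6) and 3 of 20 at 4 h, beside 2 higher at 1 h (Gpr132 and Ptafr) and 1 higher at 4 h (Gpr18), while 14 and 16 were neither. Its medians were 0.16 and 0.20, against -0.02 and -0.03 over all genes.

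Among transcription factors, Ahr, the receptor for dioxin and for tryptophan metabolites, had 10.6 FPKM with IL-33, 33.4 FPKM with IL-4 and 31.8 FPKM in untreated cells at 1 h. The 4 h libraries held 11.0 FPKM with IL-33, 14.0 FPKM with IL-4 and 15.3 FPKM in untreated cells. The IL-33 levels were alike at both times, while untreated cells held less Ahr at 4 h than at 1 h (log2 -1.01 across tables that were normalised separately). By the rule of size, Ahr was the one of the 28 early genes lower in untreated cells at 4 h than at 1 h, beside 0.723% of all genes, and Tob1 the one higher, beside 0.334%. In a list of 12 genes of the Ahr pathway, Ahr was the one lowered of 11 compared at 1 h. At 4 h none of 10 was lowered and Nqo1 was higher. Hhex, a homeobox factor of blood cell progenitors, had 27.8 FPKM with IL-33 and 62.6 FPKM in untreated cells at 1 h, and 32.0 FPKM with IL-33 and 42.9 FPKM in untreated cells at 4 h. Nfe2, the leucine zipper factor known from megakaryocytes and red cell precursors, had 80.0 FPKM with IL-33 and 169.6 FPKM in untreated cells at 1 h, and 154.1 FPKM with IL-33 and 166.6 FPKM in untreated cells at 4 h. The zinc finger genes Zscan2 and Zkscan14 changed by -1.35 and -1.01 at 1 h and by -0.40 and -0.62 at 4 h.

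Tnfaip8l2 encodes TIPE2, which restrains signalling from Toll-like and T cell receptors. It had 19.9 FPKM with IL-33, 51.3 FPKM with IL-4 and 61.7 FPKM in untreated cells at 1 h, and 46.3 FPKM with IL-33, 78.7 FPKM with IL-4 and 81.3 FPKM in untreated cells at 4 h. The 2 IL-33 libraries were the lowest of the 6, and the change was -1.59 at 1 h and -0.80 at 4 h. In a list of 25 inhibitory receptors and intracellular signalling genes, Tnfaip8l2 was the one lowered of 22 compared at 1 h. It does not encode a receptor, and none of the receptor genes compared was lowered. At 4 h none of 23 was lowered, and 5 were higher (Gp49a, Lilrb4, Pilra, Siglece and Siglecg), with a median of 0.17.

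B3gnt7, which encodes an enzyme that adds N-acetylglucosamine to keratan sulphate and related sugar chains, had the largest fall of the early group. It had 1.25 FPKM with IL-33, 10.7 FPKM with IL-4 and 7.98 FPKM in untreated cells at 1 h, a change of -1.999. At 4 h it had 11.8 FPKM with IL-33, 12.9 FPKM with IL-4 and 10.9 FPKM in untreated cells. B3gnt7 was the one lowered of 30 glycosyltransferase genes compared at 1 h, and of 32 compared at 4 h none was lowered and 4 were higher. Klhl21, an adaptor of a cullin 3 ubiquitin ligase, had 4.39 FPKM with IL-33, 13.02 FPKM with IL-4 and 15.1 FPKM in untreated cells at 1 h, and 13.1 FPKM with IL-33, 24 FPKM with IL-4 and 24.2 FPKM in untreated cells at 4 h. It was the one lowered of 22 kelch and cullin adaptor genes at 1 h, where the list's median was -0.20, and none was lowered at 4 h. Fam46a, which encodes a poly(A) polymerase, changed by -1.36 at 1 h and -0.50 at 4 h, and Plekhf1, an endosomal phosphoinositide-binding protein, by -1.34 and -0.41. Tuba8, an alpha-tubulin gene, had 44.6 FPKM with IL-33 and 102.7 FPKM in untreated cells at 1 h, and 106.0 FPKM with IL-33 and 103.0 FPKM in untreated cells at 4 h. Tmem140, a membrane protein gene, changed by -1.24 and -0.42.

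The 4 h libraries were not used to choose the early group, so they show how long the fall lasted. Of the 28 genes, all of which reached the control level at 4 h, 26 were below 0 at 4 h and 7 were lowered again (25%). Among all genes at the control level at 4 h, 53.4% were below 0 and 1.19% were lowered. Their median change at 4 h was -0.49, against -0.03 over all genes, and 14 of the 28 lay within 0.5 of no change. The share of all genes within 0.5 was not counted. The 5 nearest to the untreated level were Lpar6 (-0.03), Tuba8 (0.04), Axin2 (-0.10), B3gnt7 (0.11) and Nfe2 (-0.11). B3gnt7 and Lpar6, which had 2 of the larger early falls, were thus near the untreated level at 4 h, while Frat1 and Frat2 were still lowered.

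**Figure D2:**
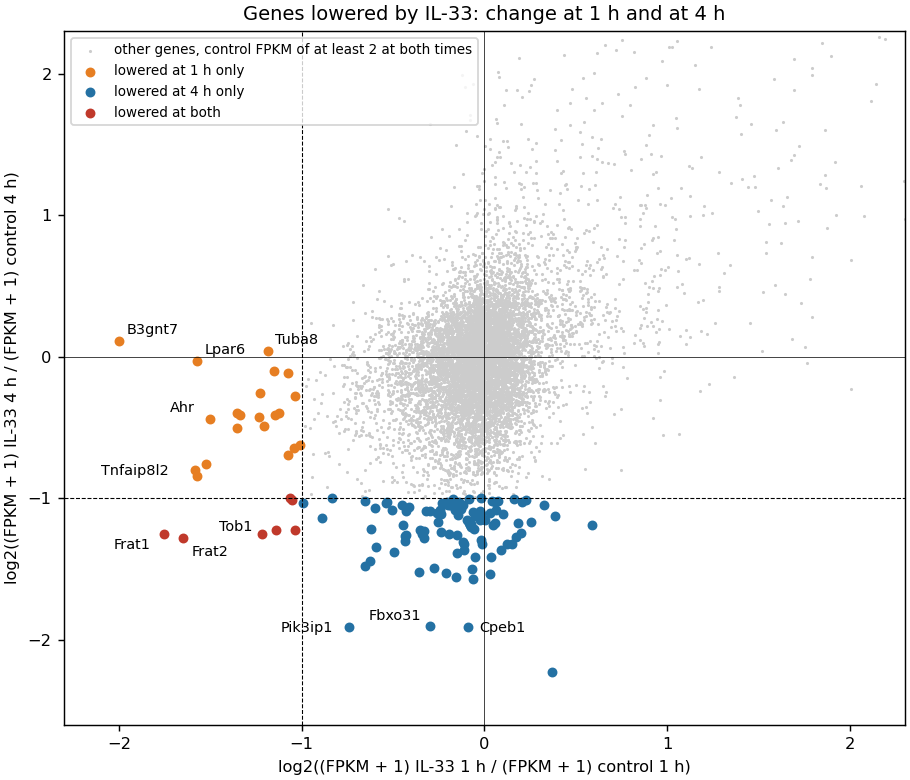
Log2 change with IL-33 at 1 h (horizontal) and at 4 h (vertical), each against the untreated library of its time, for members (coloured) and other genes with a control FPKM of at least 2 at both times (grey). Dashed lines mark the rule of size at -1. LOC100302567 and other genes outside the frame are not drawn. Most genes lowered at 4 h lie near 0 at 1 h, and the genes lowered at 1 h spread between 0.11 and -1.28 at 4 h.

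The 1 h libraries were in turn not used to choose the late group. Of the 112 genes lowered at 4 h, 7 were lowered at 1 h (6.25%), beside 0.307% of all genes, and 101 reached the control level at 1 h. Their median change at 1 h was -0.15, against -0.02 over all genes, and 86 of 112 were below 0, beside 53.9% of all genes. Of the 105 lowered at 4 h only, the largest 1 h changes were those of Cbx8 (-0.996, just outside the rule), Otub2 (-0.89), Dedd2 (-0.83) and Pik3ip1 (-0.74).

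The 7 genes lowered at both times were Abhd15, Cox6b2, Frat1, Frat2, Tmem64, Tob1 and Tsc22d3. With changes centred on the median of all genes, Tmem64 (-0.98) and Tsc22d3 (-0.97) no longer passed at 4 h, which left 5. Tob1 encodes an antiproliferative protein that recruits the deadenylase complex to mRNA. It had 8.91 FPKM with IL-33, 21.2 FPKM with IL-4 and 22.02 FPKM in untreated cells at 1 h, and 20.8 FPKM with IL-33, 56.5 FPKM with IL-4 and 51.0 FPKM in untreated cells at 4 h. All 3 Tob1 levels were higher at 4 h than at 1 h, and the IL-33 library was the lowest at each time. Tsc22d3 encodes GILZ, the leucine zipper protein induced by glucocorticoids. It had 15.8 FPKM with IL-33, 29.7 FPKM with IL-4 and 34.2 FPKM in untreated cells at 1 h, and 29.3 FPKM with IL-33, 56.4 FPKM with IL-4 and 59.6 FPKM in untreated cells at 4 h. Tmem64 had 15.8 FPKM with IL-33 and 33.9 FPKM in untreated cells at 1 h, and 22.6 FPKM with IL-33 and 46.6 FPKM in untreated cells at 4 h. Abhd15, a gene of fat cell lipid metabolism, changed by -1.14 and -1.22. Cox6b2, a subunit of cytochrome c oxidase best known from testis, changed by -1.04 and -1.23 at levels under 5 FPKM, and its changes with IL-4 were -0.35 at 1 h and -0.56 at 4 h.

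Over the 112 genes lowered at 4 h, the median level was 6.20 FPKM with IL-33, 14.5 FPKM with IL-4 and 16.6 FPKM in untreated cells at 4 h. At 1 h the same genes had medians of 8.86 FPKM with IL-33, 10.4 FPKM with IL-4 and 10.3 FPKM in untreated cells. By the roles given to members, which again have no share over all genes beside them, 21 were genes of mitochondria and metabolic enzymes, 10 of innate immunity and granules, 10 of lysosome, Golgi, secretion and transport, 8 of surface proteins and 7 of kinase and small GTPase signalling. The 3 largest falls apart from small RNAs were those of Cpeb1, Pik3ip1 and Fbxo31.

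**Figure D3:**
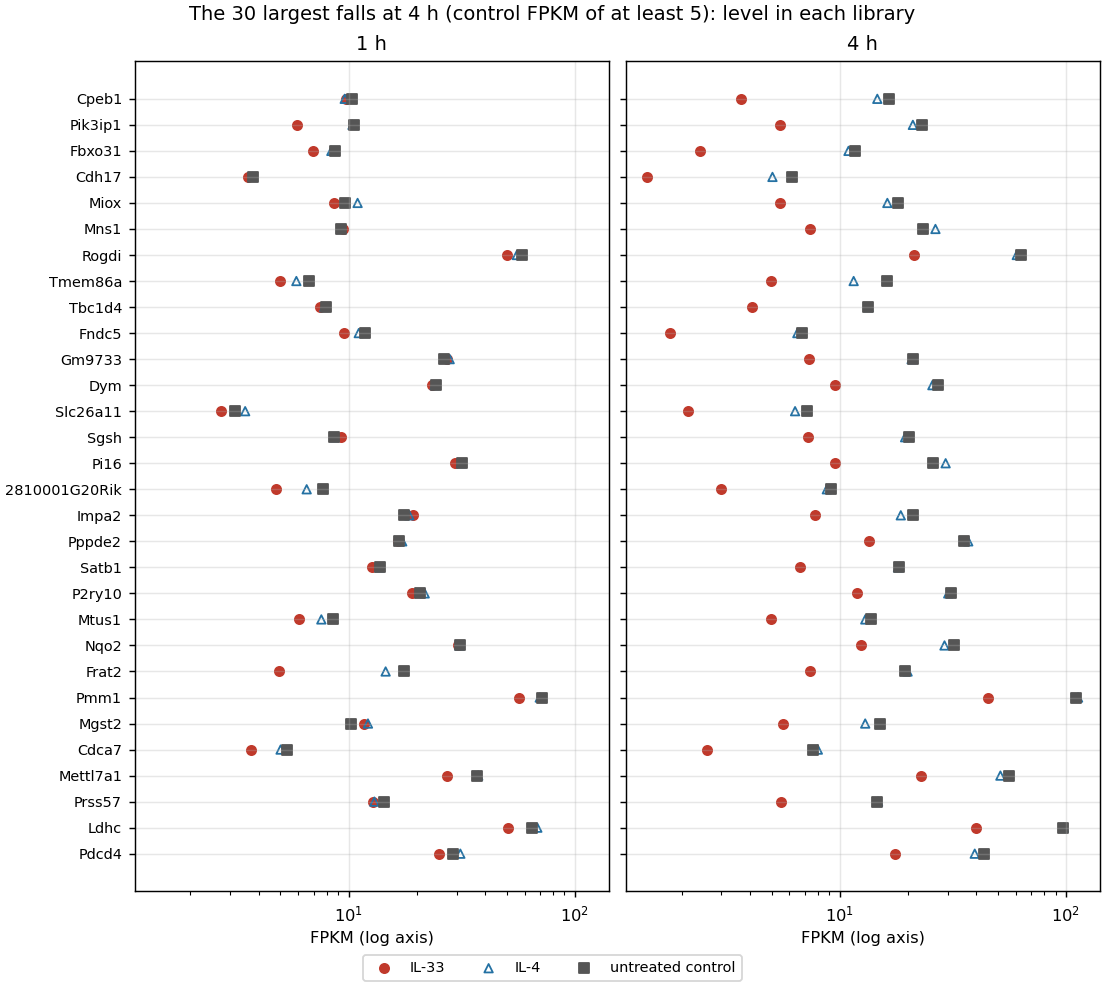
FPKM (log axis) of the 30 genes with the largest falls at 4 h among those with a control FPKM of at least 5, LOC100302567 left out, in the 1 h libraries (left) and the 4 h libraries (right), 1 point per library. At 4 h the IL-33 point lies left of the IL-4 and untreated points in all 30 genes drawn, and at 1 h Frat2 (-1.65) and Pik3ip1 (-0.74) have the IL-33 point furthest left of the untreated one.

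Cpeb1 binds the cytoplasmic polyadenylation element of mRNAs. It had 9.69 FPKM with IL-33, 9.62 FPKM with IL-4 and 10.4 FPKM in untreated cells at 1 h, and 3.68 FPKM with IL-33, 14.7 FPKM with IL-4 and 16.6 FPKM in untreated cells at 4 h. Cpeb1 was level across treatments at 1 h and lowest with IL-33 at 4 h (-1.91). Fbxo31, the substrate adaptor of an SCF ubiquitin ligase, had 6.93 FPKM with IL-33, 8.39 FPKM with IL-4 and 8.74 FPKM in untreated cells at 1 h, and 2.41 FPKM with IL-33, 10.9 FPKM with IL-4 and 11.7 FPKM in untreated cells at 4 h. It was the one lowered of 38 F-box genes compared at 4 h, and none of 37 was lowered at 1 h.

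Pik3ip1, Pdcd4, Sesn3, Dedd2 and Tbc1d4 were among the late falls. Pik3ip1, a membrane protein that inhibits PI3-kinase, had 5.92 FPKM with IL-33, 10.4 FPKM with IL-4 and 10.6 FPKM in untreated cells at 1 h, and 5.43 FPKM with IL-33, 21.1 FPKM with IL-4 and 23.1 FPKM in untreated cells at 4 h. The 2 IL-33 libraries were the lowest for Pik3ip1, and its change grew to -1.91 at 4 h against -0.74 at 1 h. Pdcd4, an inhibitor of translation, had 17.6 FPKM with IL-33 and 43.4 FPKM in untreated cells at 4 h. Sesn3, a sestrin that dampens mTORC1 and is induced by FOXO factors, had 1.02 FPKM with IL-33, 2.60 FPKM with IL-4 and 3.36 FPKM in untreated cells at 4 h. Dedd2, a death effector domain protein, had 47.8 FPKM with IL-33 and 96.7 FPKM in untreated cells at 4 h. Tbc1d4, a Rab GTPase-activating protein phosphorylated by Akt, had 4.08 FPKM with IL-33, 13.4 FPKM with IL-4 and 13.3 FPKM in untreated cells at 4 h. A list of 27 FOXO target and quiescence genes gave 1 lowered of 26 at 1 h (Tob1) and 3 of 25 at 4 h (Pik3ip1, Sesn3 and Tob1), with Gadd45a and Gadd45b higher at 1 h and Gadd45b higher at 4 h. Over all genes, 0.307% were lowered at 1 h and 1.19% at 4 h. The list's medians were -0.01 and -0.18, against -0.02 and -0.03 over all genes. In a list of 20 brakes of the PI3-kinase pathway, 1 of 18 was higher at 1 h (Ddit4) and 1 of 18 was lowered at 4 h (Pik3ip1), with medians of 0.03 and 0.11.

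The metabolic genes included 2 enzymes of inositol turnover. Miox, the enzyme that oxidises myo-inositol, had 5.46 FPKM with IL-33, 16.3 FPKM with IL-4 and 18.0 FPKM in untreated cells at 4 h. Impa2, an inositol monophosphatase, had 7.82 FPKM with IL-33, 18.6 FPKM with IL-4 and 21.1 FPKM in untreated cells. Pmm1, a phosphomannomutase, and Ldhc, the lactate dehydrogenase of testis, had among the highest levels of the late group. Pmm1 had 45.1 FPKM with IL-33, 113.2 FPKM with IL-4 and 110.8 FPKM in untreated cells at 4 h. Ldhc had 40.2 FPKM with IL-33, 97.7 FPKM with IL-4 and 97.4 FPKM in untreated cells. Both stood lowest with IL-33, with changes of -1.28 and -1.26. The mitochondrial genes Slc25a37 (the iron carrier mitoferrin), Sfxn1, Sfxn5, Coq4 and Sirt3 changed by -1.20, -1.08, -1.11, -1.05 and -1.06. Across the 21 genes the changes ran from -1.56 to -1.01, while at 1 h their median was -0.19. None of 25 genes in a list of peroxisome and lipid enzymes was lowered at 4 h, and none of 23 at 1 h, with medians of -0.18 and -0.05.

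In the endomembrane group, Sgsh and Slc26a11 are neighbours on chromosome 11, 0.047 kb apart. Sgsh, the lysosomal sulphatase that acts on heparan sulphate, had 7.24 FPKM with IL-33, 19.5 FPKM with IL-4 and 20.3 FPKM in untreated cells at 4 h. Slc26a11, a sulphate transporter, had 2.14 FPKM with IL-33, 6.35 FPKM with IL-4 and 7.21 FPKM in untreated cells. Dym, a Golgi protein, had 9.57 FPKM with IL-33, 25.7 FPKM with IL-4 and 27.2 FPKM in untreated cells. Spns3, a member of the spinster transporter family, stood just inside the rule, with 62.6 FPKM with IL-33, 117.9 FPKM with IL-4 and 126.2 FPKM in untreated cells. Other pairs of members within 100 kb were Prss57 with Palm, Slc25a37 with Entpd4, Pmm1 with Pppde2, Frat1 with Frat2, and Mettl7a1 with Mettl7a2. The last pair shared 32.5% and 35.2% of their 36-base words, so their separate values are uncertain.

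Among innate immune and granule genes, Padi4, which citrullinates histones, had the highest level of all members. It had 346.3 FPKM with IL-33, 370.2 FPKM with IL-4 and 376.2 FPKM in untreated cells at 1 h, and 132.8 FPKM with IL-33, 264.1 FPKM with IL-4 and 275.6 FPKM in untreated cells at 4 h. Tmem173, which encodes STING, had 18.9 FPKM with IL-33 and 43.8 FPKM in untreated cells at 4 h. Nlrp12, a dampener of NF-kB signalling, had 9.16 FPKM with IL-33 and 20.6 FPKM in untreated cells. The granule protease gene Prss57 had 5.52 FPKM with IL-33 and 14.6 FPKM in untreated cells, and the cytokine gene Il15 had 2.14 FPKM with IL-33 and 5.49 FPKM in untreated cells. Padi4 and Prss57 are also expressed by neutrophils, whose 13 markers summed to 6208 FPKM with IL-33 and 7940 FPKM in untreated cells at 4 h, with none lowered and a median change of -0.35. The part of these markers in the late falls was not tested. None of 12 eosinophil markers was lowered at either time, with medians of -0.02 at 1 h and -0.14 at 4 h. At 4 h the changes of these 12 ran from -0.89 for Il5ra to 0.72 for Gata1. None of 7 mast cell and basophil markers compared was lowered (medians 0.04 and -0.32), and none of 4 lymphoid markers (medians 0.12 and -0.19). Of 12 monocyte and dendritic cell lineage markers compared none was lowered, while Cd14 was higher at 1 h and Batf3, Cd14, Csf1r and Mrc1 at 4 h.

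Cytokine receptors and adhesion molecules contributed single genes. Il17ra, a subunit of receptors for IL-17 cytokines, had 22.03 FPKM with IL-33, 44.6 FPKM with IL-4 and 47.7 FPKM in untreated cells at 4 h. It was the one lowered of 33 cytokine and chemokine receptor genes compared at 4 h, while 5 were higher (Ccrl2, Csf1r, Il10ra, Il10rb and Il2rg). At 1 h none of 32 was lowered and 3 were higher. Epor, the erythropoietin receptor, had 2.85 FPKM with IL-33, 6.62 FPKM with IL-4 and 8.01 FPKM in untreated cells at 4 h. Epor was the one lowered of 5 erythroid and megakaryocyte markers compared, a list that summed to 279.4 FPKM with IL-33 and 305 FPKM in untreated cells. Cdh17, a cadherin best known from intestine, had 1.41 FPKM with IL-33, 5.05 FPKM with IL-4 and 6.16 FPKM in untreated cells. Itgae, the alpha E integrin, had 0.987 FPKM with IL-33, 3.05 FPKM with IL-4 and 3.96 FPKM in untreated cells. None of 19 granulocyte transcription factors in a list was lowered at 4 h, where Cebpb was higher, and none of 18 at 1 h.

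A single replication gene was past the rule, Cdt1, which licenses origins. It had 6.89 FPKM with IL-33, 12.9 FPKM with IL-4 and 15.1 FPKM in untreated cells at 4 h. The list of 30 replication and repair genes it belongs to had 1 lowered of 26 at 4 h and none of 25 at 1 h. Its median was -0.34 at 4 h and 0.07 at 1 h, against -0.03 and -0.02 over all genes. Mcm6, a subunit of the replicative helicase that missed the rule, had 11.1 FPKM with IL-33, 21.4 FPKM with IL-4 and 20.3 FPKM in untreated cells at 4 h. Late falls without a list included Mns1, a protein of cilia and sperm tails, at 7.42 FPKM with IL-33, 26.5 FPKM with IL-4 and 23.4 FPKM in untreated cells. Rogdi had 21.3 FPKM with IL-33 and 63.1 FPKM in untreated cells. Tmem86a had 4.97 FPKM with IL-33, 11.5 FPKM with IL-4 and 16.2 FPKM in untreated cells. Fndc5, the precursor of irisin, had 1.78 FPKM with IL-33 and 6.81 FPKM in untreated cells. Lrmp had 47.9 FPKM with IL-33 and 104.1 FPKM in untreated cells. Gm9733, a predicted gene whose value is uncertain, changed by -1.41.

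Many late genes were higher at 4 h than at 1 h in cells that had not received IL-33. Untreated cells at 4 h were set against untreated cells at 1 h, across tables that were normalised separately. The median log2 difference was 0.50 over the 112 late genes and 0.10 over all genes at the control level. Differences of at least 0.5 stood in 56 of the 112, beside 9.08% of all genes, and differences of at least 1 in 14, beside 0.491%. The untreated 4 h library also entered the rule, so a high value there served both. The IL-4 libraries did not enter it, and IL-4 at 4 h against IL-4 at 1 h gave a median of 0.39 over the late genes and 0.15 over all. There, 47 of 112 were at 0.5 or above, beside 11.6% of all genes, and 12 were at 1 or above, beside 0.885%.

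The IL-33 library of 4 h, whose low values entered the choice of the late genes, was also set against the untreated library of 1 h. Lower values than over all genes are thus built in, and the values are a description of levels only. The comparison had a median difference of -0.74 over the late genes, and 0.08 over all genes. By this difference 27 of 112 late genes were past -1, beside 1.16% of all genes, and 5 of 112 were above 0, beside 59.6%. Below the untreated 1 h library stood 40.4% of all genes. A place below the untreated 4 h library is fixed by the rule for late genes. Both held for 106 of 112, which had less FPKM with IL-33 at 4 h than in both untreated libraries. Fndc5 is an example, at 1.78 FPKM with IL-33 at 4 h against 6.81 FPKM in untreated cells at 4 h and 11.8 FPKM at 1 h. Mns1 stood at 7.42 FPKM with IL-33 at 4 h, 23.4 FPKM in untreated cells at 4 h and 9.21 FPKM in untreated cells at 1 h. The 6 not below both were Cbx8, Gm4013, Itgae, LOC100302567, Mcam and Qpct. The Polycomb gene Cbx8 had 11.9 FPKM with IL-33 at 4 h, 25.5 FPKM in untreated cells at 4 h and 10.9 FPKM in untreated cells at 1 h. With IL-33 at 1 h, Cbx8 had 4.98 FPKM. For all 6 the untreated level was higher at 4 h than at 1 h, which the rule fixes for late genes not below the untreated 1 h library. For 5 of the 6 the IL-33 level at 4 h was above the untreated 1 h level, by log2 0.12 (Cbx8) to 0.35 (Qpct). LOC100302567 was listed at 0 with IL-33 at 4 h and in untreated cells at 1 h.

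**Figure D4:**
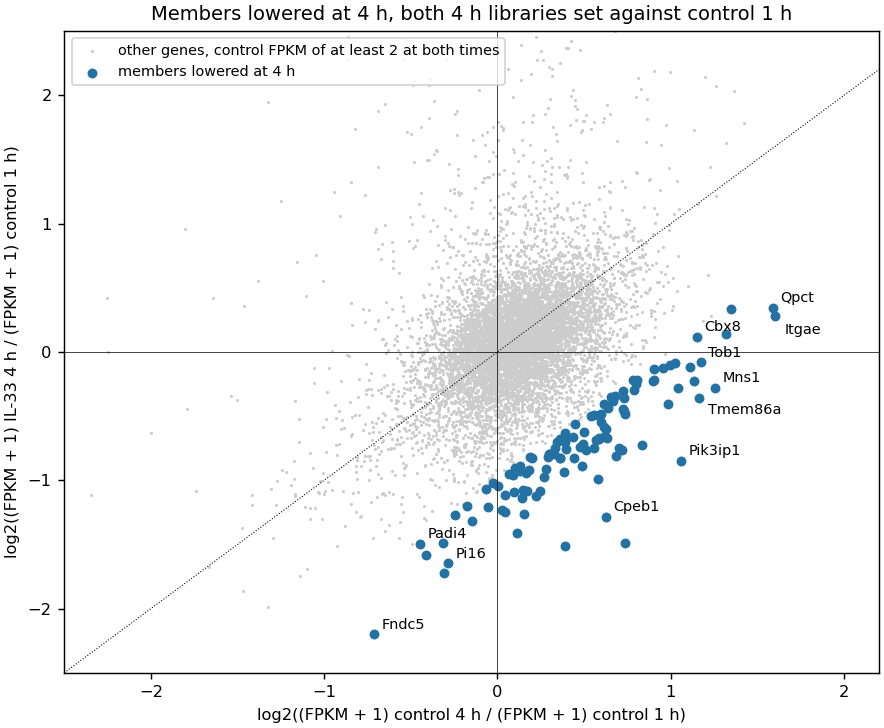
Log2 difference from the untreated 1 h library of the untreated 4 h library (horizontal) and of the IL-33 4 h library (vertical), for genes lowered at 4 h (blue) and other genes (grey). On the dotted line the 2 libraries of 4 h are equal. Blue points lie below it by construction, most lie right of 0, and 5 lie above 0 on the vertical axis. LOC100302567 and other genes outside the frame are not drawn.

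Few genes of any kind passed the rule of size with IL-4, and the members' counts were near that share. None of the 28 early genes was lowered with IL-4 at 1 h, where 0.011% of all genes were, or at 4 h, where 0.0213% were. Their median change was -0.11 with IL-4 at 1 h, which shares the untreated library with the rule, against -0.02 over all genes. With IL-4 at 4 h, which does not share it, the median was -0.03, against 0.02 over all genes. The lowest was Cox6b2 at both times. Of the 112 late genes none was lowered with IL-4 at 1 h (median -0.02, as over all genes), and LOC100302567 was the one lowered at 4 h (median -0.09, against 0.02 over all genes). No late gene was higher with IL-4 at 4 h (0.171% of all genes), and 1 was at 1 h (0.0438% of all genes), again LOC100302567. Apart from it, the lowest IL-4 value of a late gene at 4 h was -0.93 for 5430435G22Rik, with 2.28 FPKM with IL-33, 2.74 FPKM with IL-4 and 6.13 FPKM in untreated cells.

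The transcripts of the early genes had few exons. The early genes had a median of 2.5 exons, the late genes 8 and all genes at the control level 9, by the GENCODE transcript matched to the transcript of highest FPKM. Of the early genes, 14 of 28 (50%), had at most 2 exons, against 15 of 108 late genes (13.9%) and 6.90% of all genes. The median span in the genome was 5.66 kb for early genes, 20.8 kb for late genes and 19.99 kb for all genes. Transcript lengths were close, at medians of 2.60 kb, 2.69 kb and 2.76 kb. Genes higher with IL-33 at 1 h lay between, with a median of 6 exons and 17.5% with at most 2. All 7 genes lowered at both times had at most 3 exons, beside 13.2% of all genes at the control level at 1 h and 13.3% at 4 h. The exon number was not used by the rule.

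**Figure D5:**
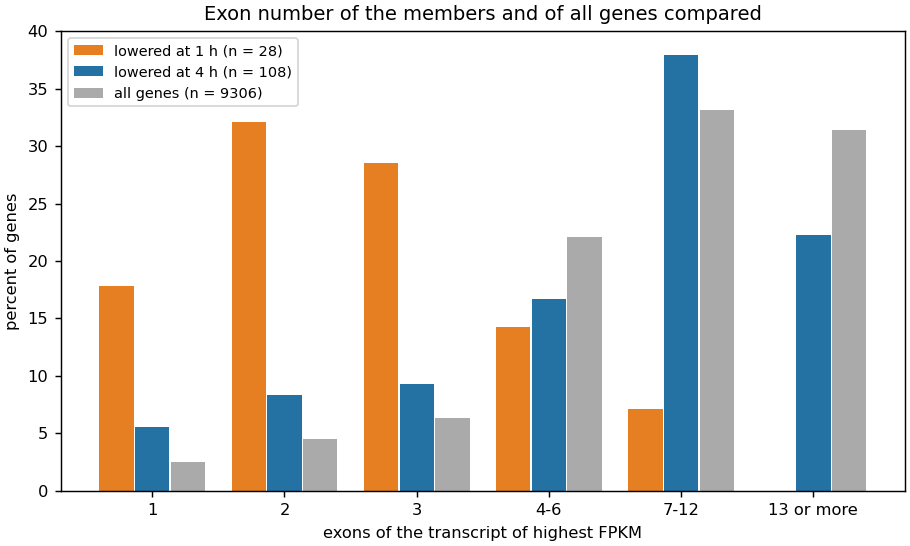
Percent of genes (vertical, from 0) by the number of exons of the transcript of highest FPKM (horizontal), for genes lowered at 1 h (n = 28), genes lowered at 4 h (n = 108) and all genes at the control level (n = 9306). Early genes are concentrated at 1 to 3 exons (78.6%, beside 13.2% of all genes at the control level at 1 h). Late genes follow the shape of all genes with a shift to fewer exons.

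The 3 small structural RNAs among the late genes are uncertain. LOC100302567, a small RNA of unstated function in the files, was listed at 0 with IL-33 and with IL-4 at 4 h, against 46.9 FPKM in untreated cells. At 1 h it had 29.9 FPKM with IL-33 and 35.5 FPKM with IL-4 and was listed at 0 in untreated cells. Its 3 values above 0, each multiplied by the estimated depth of its library, agreed within 0.296%, so they stand for the same number of reads. Rprl3 was listed at 0 with IL-33 at 4 h, against 4.44 FPKM with IL-4 and 3.69 FPKM in untreated cells. Rpph1, the RNA of ribonuclease P, had 0.525 FPKM with IL-33, 4.52 FPKM with IL-4 and 2.48 FPKM in untreated cells at 4 h.

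The rule has a threshold, and members near it are close to genes outside it. At 1 h the 3 just inside were Nrarp, Cox6b2 and Zkscan14 (-1.04, -1.04 and -1.01), and just outside were Nudt7, Cbx8 and E130215H24Rik (-0.998, -0.996 and -0.984). At 4 h Dedd2, Spns3 and Tsc22d3 were just inside and 0910001L09Rik, Cnnm2 and Igsf8 just outside, with the outer 3 at -0.9997, -0.9985 and -0.9959. After centring, 27 of the 28 early genes and 96 of the 112 late genes still passed. Zkscan14 (-0.989) no longer passed at 1 h. Among the late genes named by the choice given under processing, Dedd2, S1pr4, Spns3, Tmem64 and Tsc22d3 no longer passed at 4 h (-0.9947 to -0.9723). Genes named for other reasons were not checked singly. Of the members, 22 of the early and 84 of the late genes stood in the authors' deposited table of 1593 regulated genes, which marked 22 and 82 of them as significant and lower with IL-33 at that time. Of all genes at the control level it marked 2.73% as lower at 1 h and 1.8% at 4 h. The marks rest on the same 2 libraries as the rule, so nothing is read from the members' count. By the estimated depth, the median early gene had 448 reads with IL-33 and 1041 in untreated cells, and the median late gene had 524 with IL-33 and 721 in untreated cells. Under 20 reads with IL-33 stood behind AA465934 at 1 h and behind Gm4013, LOC100302567 and Rpph1 at 4 h, and Rpph1 had under 20 in untreated cells too (5 with IL-33 and 12 in untreated cells). The late genes with an estimate were 107 of 112, and those without included Rprl3.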

How the data were processed

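The 6 libraries were single-read Illumina libraries of total RNA, per the labels' protocols. Reads were aligned with TopHat 1.4.1 and quantified with Cuffdiff 1.2.1 on build mm9, per the submitters' processing notes. The sources used here do not state trimming or the annotation release. The authors deposited FPKM per RefSeq transcript (28702) in 4 tables, pairing a treated library with untreated cells of the same time, and a list of 1593 genes with the authors' deposited log2 fold changes, used for its marks only.

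Here FPKM was summed per symbol and compared as log2(FPKM + 1), which understates changes of low genes. IL-4 values were brought to the scale of the IL-33 table by the ratio of the shared control's columns (0.945 at 1 h and 0.947 at 4 h, 100% of symbols within 0.1%). No other samples' columns occurred. Comparisons between 4 h and 1 h run across tables. No p-value was computed, and "lowered" and "higher" mean past a log2 change of 1. Reads per value were estimated from the steps of low values.

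The members, gene lists and role groups were chosen with earlier results of these data known. Genes named were the 15 largest falls at each time with a control FPKM of at least 5, members lowered at both times, in a list, just inside the rule, or among the 5 highest. Others were chosen as examples of role groups after their values were seen. Alternatives were another pseudocount, control level, size rule, locus choice, centring and control, and a set without small RNAs. The rule was tried on simulated data with falls larger than most seen here and with counting noise only. Falls near the threshold and differences between cultures were not simulated. Exons came from GENCODE M21, promoter windows from RefSeq. Python 3.11.15, pandas 2.3.3, numpy 2.4.6, scipy 1.17.1 and matplotlib 3.10.9 were used.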

Additional observations from a re-analysis of the deposited data

Results flagged for a closer look

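LOC100302567, a small RNA, stood out because its difference from untreated cells ran one way at 1 h and the opposite way at 4 h, with both cytokines. At 1 h it had 29.9 FPKM with IL-33 and 35.5 FPKM with IL-4 and was listed at 0 in untreated cells. At 4 h it was listed at 0 with IL-33 and with IL-4, against 46.9 FPKM in untreated cells. The difference between the times was not tested, with 1 library per group. The IL-33 and IL-4 differences of a time share the untreated library. Its values above 0 stand for the same estimated number of reads in each library that held it, and they are uncertain, as said above.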

How the results depend on the processing

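No paired analysis was possible because each group holds 1 library. Leaving out a library ends a comparison, for the same reason.

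With a pseudocount of 0.1 there were 262 members, 59 at 1 h, 214 at 4 h and 11 at both times, which include all 28 and all 112 of the reported ones. Then 3 members were lowered by IL-4 at 1 h, and 5 by IL-4 at 4 h. With a size rule of -1.5 there were 18 members, 8 at 1 h, 10 at 4 h and 0 at both, so the shares lowered at the other time were 0 and 0, and the early genes' median at 4 h was -0.78. Set against the control of the other time, across tables, 290 genes were lowered at 1 h, among them 21 of the 28, and 142 at 4 h, among them 26 of the 112. Without the small RNAs, chosen after seeing the data, 0 members were lowered with IL-4 at 4 h. The causes were not tested, apart from the size rule, which keeps fewer genes, and the small RNA, which was that gene. All other counts, shares and medians stayed within 1.5 times, the binomial interval or 0.1 log2 of those reported, under control levels of 1 and 5 FPKM, the highest locus only, centring on the median and IL-4 values as deposited. Of the genes named by the choice given under processing, 1 at 1 h and 5 at 4 h no longer passed the rule after centring. Against the other control, 5 at 1 h and 22 at 4 h of these genes no longer passed, with the direction kept. Genes named for other reasons were not counted. Of those, Cbx8, Gm4013, Itgae, Mcam and Qpct stood above the untreated 1 h level with IL-33 at 4 h. Depth limits the genes with few estimated reads, and FPKM without counts gives no error per value.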
